A study of Mus musculus with 24 samples.

Results

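The transcriptome of control mouse myotubes in their standard differentiation medium was described from 6 of the 24 arrays of the series. The members are the arrays labelled control in standard medium, and they were read across genes, without a contrast, for the brightest genes, the isoforms present within muscle gene families and the genes that varied most and least between arrays. Cells were isolated from quadriceps muscle of ICR mice, an outbred strain, then expanded and fused in culture. In the control group the dams had free access to chow throughout. In the undernourished group, read here only as outside arrays, food was cut to 50% of the controls' intake from day 12.5 of pregnancy on. All litters were set to 8 pups after birth. Standard medium held 5.5 mM glucose with 2% fetal bovine serum. The limited medium was given overnight, with serum at 1%, glucose at 0.5 mM, carnitine at 0.5 mM and glutamine at 1 mM. Each culture carries a number, for controls 5, 10, 11, 15, 16 and 24, and each number occurs once in each medium. The labels name no sort or gate, no age of the offspring and no meaning of the culture number, so the cultures may or may not come from separate animals. The 6 arrays correlated with each other at 0.956 to 0.986 over all clusters of the table.

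Skeletal muscle forms when myoblasts leave the cell cycle, fuse into multinucleated myotubes and assemble sarcomeres. This is driven by the myogenic regulatory factors, basic helix-loop-helix proteins that bind E-boxes, with Myog as the factor of terminal differentiation. Most sarcomere proteins come in embryonic, neonatal, slow, fast and cardiac isoforms from separate genes, and a maturing fibre exchanges embryonic for adult forms. Innervation and contraction promote this exchange in the animal, and cultured myotubes have no nerve.

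All values are log2 signal as deposited, and an error is the SD over the 6 arrays (n = 6) unless stated otherwise. A transcript cluster is the set of probes that the array assigns to a locus, and probes of different genes differ in brightness. A level can therefore be compared between arrays for 1 gene but not between genes as an amount of transcript. As an outside scale for dim signal, the 95th percentile of the means of 1428 olfactory, vomeronasal and taste receptor genes was used, which lay at 5.66 and is called the receptor reference below. Of 22180 named genes, 12791 (57.7%) had a mean at or above it, and 7861 (35.4%) reached the 99th percentile of the receptor genes at 6.92. The median gene had a mean of 6.03 and an SD of 0.18.

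The arrays carried the RNA of differentiated muscle. Myog had a lowest value of 12.13, a median of 12.33 and a highest of 12.64. Myh3, the embryonic myosin heavy chain, lay between 12.86 and 13.22 with a median of 13.08. Ckm, the muscle creatine kinase, lay between 10.50 and 10.95 with a median of 10.67, and its other cluster averaged 6.34. The other 7 markers of the fixed myotube list (Acta1, Tnnt3, Tnni2, Myh8, Atp2a1, Mymk and Des) were also above the reference, and the list averaged 11.97 (culture 5) to 12.17 (culture 10) per array. Transcripts of satellite cells and myoblasts were present too: all 7 listed markers were above the reference, with Myod1 at 11.32 ± 0.31 and the stem cell factor Pax7 at 7.23 ± 0.22. Of the 6 measured genes of dividing cells, 4 were above the reference and 0 reached 6.92, the brightest being the proliferation antigen Mki67 at 6.14 ± 0.38.

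Of 45 measured markers of cell types other than muscle, 15 were above the reference (57.7% of all genes were). Endothelial markers had 1 of 7 above the reference (Kdr), leukocyte markers 2 of 6 (Cd68 and Itgam), adipocyte markers 1 of 6 (Plin1) and tenocyte markers 1 of 5. Of the smooth muscle and pericyte markers 4 of 7 were above it (Myh11, Cspg4, Pdgfrb and the bright Acta2), and Cnn1 and Rgs5 were below. The endothelial Pecam1 (5.34), the leukocyte Ptprc (3.55) and the adipocyte Adipoq (3.88) were among the markers below it. The tenocyte gene above it was Scx at 9.33. Of 5 measured Schwann and glial markers 3 were above it, the neuregulin receptor Erbb3 at 10.19 and the transcription factors Foxd3 at 7.04 and Sox10 at 5.72, while Cdh19 and S100b were below. Fibroblast markers had 3 of 9 above the reference, the collagens Col1a1, Col1a2 and Col3a1, and the list averaged from 5.65 in culture 15 to 6.97 in culture 16. The glial list averaged 6.83 in culture 16 and 6.78 in culture 24 against 6.08 to 6.30 in the other 4. Its member Cdh19 had 6.29 and 5.83 in cultures 16 and 24 against 3.48 to 3.57 elsewhere. Cdh19 was the only glial marker called by the culture test described below, so this average does not stand for each marker. Pdgfra, the defining receptor of fibro-adipogenic progenitors, lay between 4.90 and 5.64, below the reference on every array. In such bulk samples, fewer cells of a type and less RNA per cell cannot be told apart.

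Among the 25 brightest of all genes, 9 were encoded by the mitochondrial genome, 7 belonged to the fixed muscle families, 2 were small RNAs and 1 was a ribosomal protein gene. Among the 100 brightest, the muscle families had 30, ribosomal proteins and the mitochondrial genome 9 each. Mitochondrial DNA codes for subunits of the respiratory chain. ND4, a subunit of complex I, had the highest mean of all genes at 13.98 ± 0.03. COX1 of cytochrome oxidase followed at 13.84 ± 0.06 and CYTB of complex III at 13.80 ± 0.03, and ND5, ND1, ND4L, ND2, ND3 and COX3 lay between 13.39 and 13.79. Their spread was small, with SDs from 0.03 (ND4) to 0.10 (ND3). The highest value among them, 14.04 for ND4 in culture 5, was close to the top of the range of these arrays.

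The muscle genes among the brightest named genes encode proteins of the thin and thick filaments, the fusion machinery and the cell surface. Actc1, the cardiac actin that embryonic skeletal muscle also uses, had 13.58 ± 0.10. Acta2, the smooth muscle actin, had 13.19 ± 0.16 and the skeletal actin Acta1 13.16 ± 0.15. These actin genes are near-identical in their coding sequence, so signal may be shared between their probes. Tnnt2, the cardiac and embryonic troponin T, had 13.20 ± 0.12, and Tnnc1, the slow and cardiac troponin C, had 12.93 ± 0.10. The embryonic myosin heavy chain Myh3 was in 23rd place, at 13.04 ± 0.13. Mymk (myomaker), the membrane protein that makes myoblasts competent to fuse, had 13.29 ± 0.10, and the adhesion molecule Ncam1 had 13.13 ± 0.16. The remaining named genes were Gapdh of glycolysis, the translation genes Eif4a1, Eef1a1 and Rpl21, the ferritin heavy chain Fth1, the tetraspanin Cd81, the cell cycle inhibitor Cdkn1a (13.08 ± 0.15) and Atp5b of the mitochondrial ATP synthase, in 25th place at 12.89. Rpl29, at 12.88, was the first outside. Eif4a1 spread most of the 25, from 12.88 in culture 10 to 13.54 in culture 24, and its other cluster averaged 8.19. Clusters without a name were as bright in places: 40 of 16010 unnamed clusters reached the level of Atp5b.

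**Figure D1:**
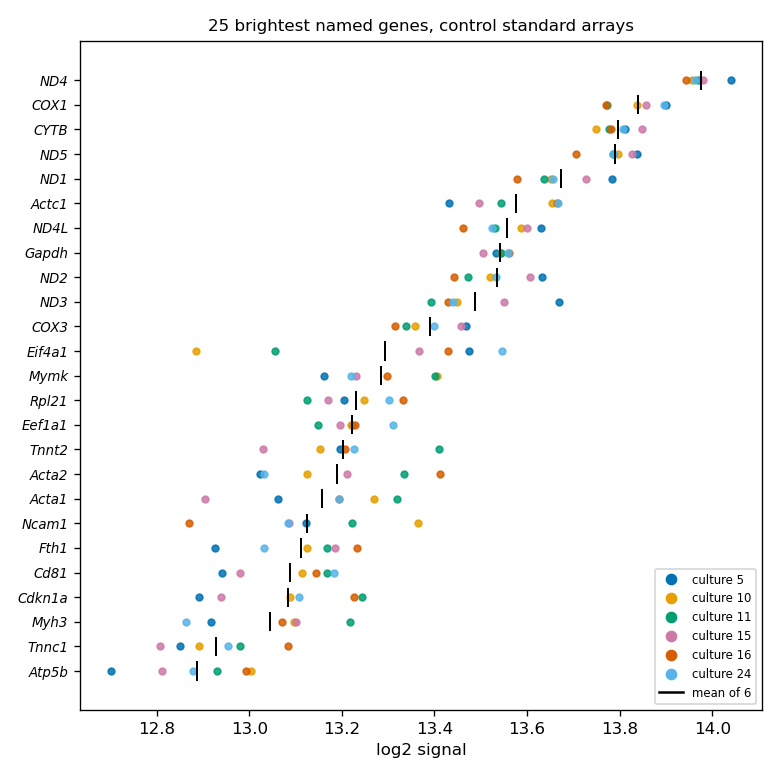
Log2 signal of the 25 brightest named genes (rows, brightest at the top) on the 6 control arrays in standard medium. Dots are cultures and black ticks are means of 6. The mitochondrial genes from ND4 to COX3 sit in narrow groups, and Eif4a1 has the widest spread, from 12.88 to 13.54.

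The muscle families comprised 228 listed genes, of which 208 were measured under 1 symbol. Of these, 188 (90.4%, against 57.7% of all genes) had a mean at or above the receptor reference, and 161 reached 6.92. Their median mean was 9.58 and their median SD 0.23. The median SD over all genes was 0.17 in the dimmest 20% of genes and 0.21 in the brightest 20%.

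Among myosin heavy chains, the motor proteins of the thick filament, 12 of 14 were above the reference. Myh3 (embryonic) had 13.04 ± 0.13, and Myh8 (neonatal) had 11.34 ± 0.15. Both had narrow spreads in all 6 cultures. Of the adult chains, Myh1 (fast type IIX) had 11.81 ± 0.37 and Myh7 (slow and cardiac) 11.25 ± 0.52. Myh4 (fast type IIB) had a lowest value of 6.15 in culture 15, a median of 9.48 and a highest of 10.86 in culture 5. Myh2 (fast type IIA) lay between 5.87 and 8.21 with a median of 6.99. Embryonic and neonatal chains were thus bright on every array, while the type IIB and IIA chains ranged from near the reference to well above it. Myh13 (extraocular) and Myh15 had means of 5.00 and 4.23, below the reference. The genes of the chromosome 11 cluster (Myh1, Myh2, Myh3, Myh4, Myh8 and Myh13) are closely alike in sequence, and the probes were not checked for shared hits. The second cluster of Myh8 averaged 7.79 and followed the first weakly.

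The promoters of Myh3 and Myh4 are shown because these genes mark the narrow and the wide end of the family. Each stretch holds 300 bases around the annotated gene start from RefSeq (GRCm38.p6), written 5′ to 3′ on the strand of the gene, with E-boxes (CANNTG) in capitals.
Myh3 (chr11:67078050-67078349, plus strand): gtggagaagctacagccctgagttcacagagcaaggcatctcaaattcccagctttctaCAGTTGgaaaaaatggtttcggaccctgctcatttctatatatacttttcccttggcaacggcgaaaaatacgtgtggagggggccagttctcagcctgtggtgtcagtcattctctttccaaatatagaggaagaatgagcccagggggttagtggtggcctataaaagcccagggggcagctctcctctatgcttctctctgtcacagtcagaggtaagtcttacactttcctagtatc
Myh4 (chr11:67237562-67237861, plus strand): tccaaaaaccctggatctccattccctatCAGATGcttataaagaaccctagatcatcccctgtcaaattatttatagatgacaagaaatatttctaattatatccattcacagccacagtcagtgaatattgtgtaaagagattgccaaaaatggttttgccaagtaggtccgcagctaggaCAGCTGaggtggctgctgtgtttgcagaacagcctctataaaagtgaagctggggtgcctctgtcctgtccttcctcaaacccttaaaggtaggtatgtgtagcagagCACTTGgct
The Myh3 stretch held 1 E-box and 1 TATAAA, and that of Myh4 held 3 E-boxes, 1 of them CAGCTG, with 3 TATAAA on either strand and 1 match to the MEF2 consensus. Among 27025 promoters of the same length, 72.1% held CANNTG, 17.5% held it at least 3 times, 16.1% held CAGCTG, 14.2% held TATAAA and 3.3% held the MEF2 consensus. CAGCTG hits are included among the CANNTG hits, and both strands were searched.

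Of the myosin light chains, 10 of 12 were above the reference. Mylpf (fast regulatory) had 12.50 ± 0.16, Myl1 (fast essential) 11.80 ± 0.16, Myl4 (embryonic and atrial) 11.48 ± 0.10 and Myl6b (slow and nonmuscle) 11.78 ± 0.15. Myl2, the slow and ventricular regulatory chain, had 6.99 ± 0.34, and Myl3, its essential partner, had 5.94 ± 0.26. Myl7 (atrial) and Myl10 had means of 5.55 and 5.61. The embryonic light chain was thus bright beside the fast forms, and of the slow ventricular pair Myl3 was close above the reference and Myl2 just past the receptor genes' 99th percentile of 6.92.

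All 8 troponin genes were above the reference. Troponins make contraction sensitive to calcium, with fast, slow and cardiac forms of the T, I and C subunits. Tnnt3 (fast T) had 12.49 ± 0.08, Tnnt1 (slow T) 9.70 ± 0.49, Tnnc2 (fast C) 11.51 ± 0.27, Tnni1 (slow I) 11.03 ± 0.22 and Tnni2 (fast I) 9.76 ± 0.12. Tnni3, the adult cardiac I form, had 5.95 ± 0.15, with a lowest value of 5.72, a median of 5.92 and a highest of 6.13. Cardiac forms of T and C were therefore among the brightest genes on these arrays, while the cardiac I form stayed close to the reference.

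**Figure D2:**
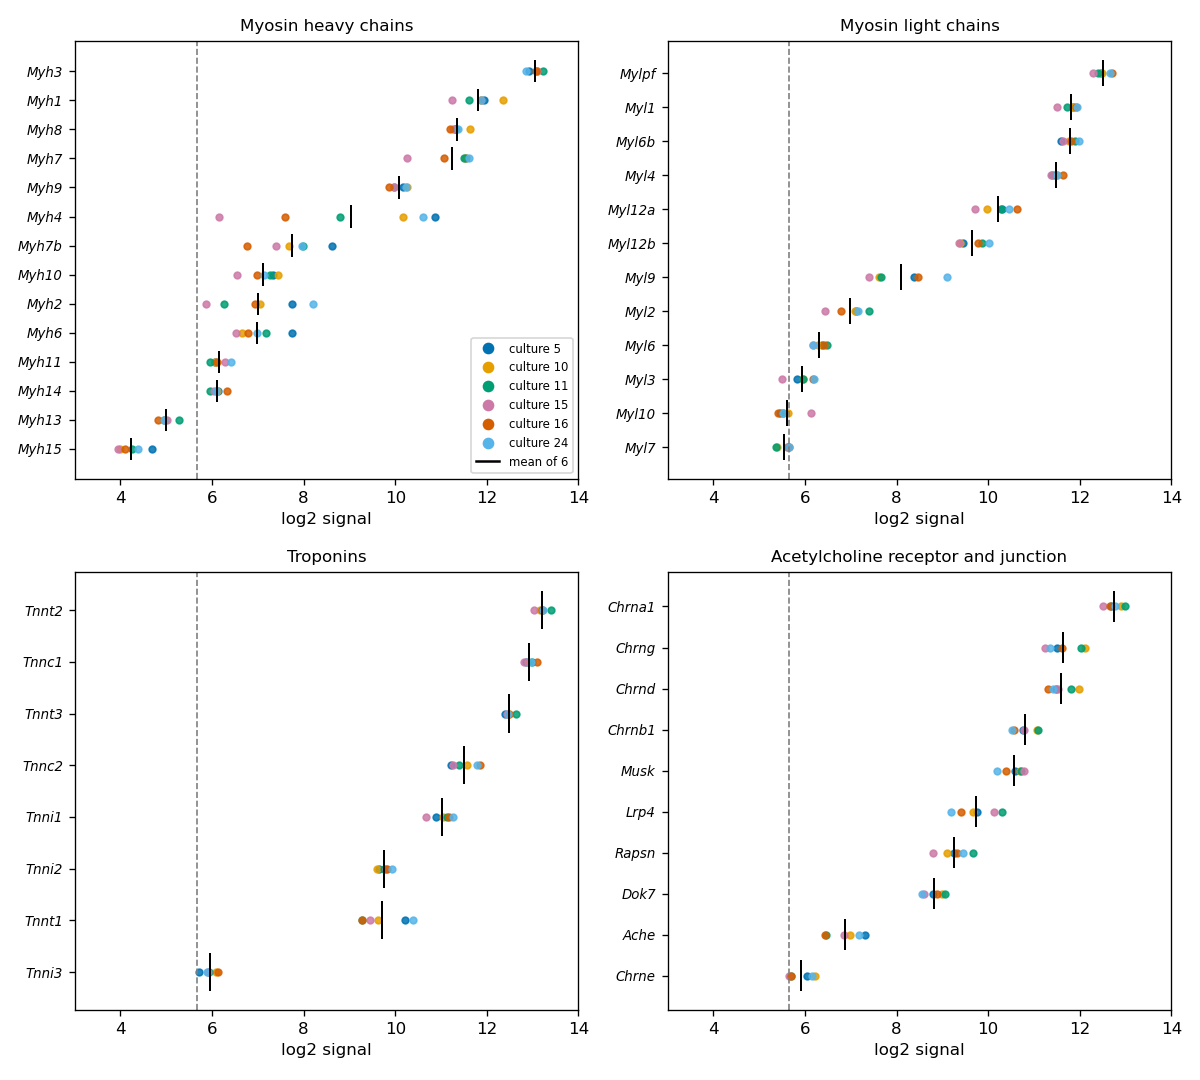
Log2 signal of each measured member of 4 families (rows) on the 6 control arrays in standard medium. Dots are cultures, black ticks are means of 6 and the dashed line is the receptor reference at 5.66. Myh3, Tnnt2 and Chrna1 form narrow groups near the top of the scale, Myh4 spreads from 6.15 to 10.86, and Chrne lies next to the dashed line.

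Of the other sarcomere families, the 4 alpha actinins, 4 tropomyosins and 6 actins were all at or above the reference. Of 9 measured myosin binding proteins, myomesins and giant sarcomere proteins, 7 were above it and 2 below. The Z-disc actinins Actn2 (12.76 ± 0.18) and Actn3 (12.05 ± 0.31) were both bright. Titin (Ttn, 12.67 ± 0.35) and nebulin (Neb, 12.60 ± 0.25), which set filament length and order, were bright as well. Mybpc1, the slow myosin binding protein, had 11.95 ± 0.23. Mybpc2, the fast form, had 6.23 ± 0.38, and Mybpc3, the cardiac form, had 5.54 ± 0.10. The myomesins of the M-band, Myom1 (10.51), Myom2 (11.16) and Myom3 (10.33), were all above the reference, and Nebl, the cardiac nebulette, was below it at 5.14. Tpm2 had 12.46 ± 0.08 among tropomyosins. Tpm3 had 8.93 ± 0.53, and its second cluster did not follow the first.

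In excitation-contraction coupling, the skeletal channel forms were above the reference, and the cardiac and neuroendocrine pore subunits Cacna1c and Cacna1d and the cardiac release channel Ryr2 were below it. Here the voltage sensor of the surface membrane opens the release channel of the calcium store. Cacna1s, the skeletal voltage sensor, had a lowest value of 10.39, a median of 10.85 and a highest of 11.15. Cacna1c and Cacna1d, the cardiac and neuroendocrine forms, had means of 5.17 and 4.84. Ryr1, the skeletal release channel, had 11.14 ± 0.48, Ryr3 7.48 ± 0.54 and the cardiac Ryr2 5.07 ± 0.11. Cacnb1 (9.71), Cacng1 (11.23), Stac3 (9.25), the junctophilins Jph1 (10.21) and Jph2 (9.31) and triadin Trdn (11.16) were also above the reference. Of the other beta subunits, Cacnb2 was above it at 5.95 and Cacnb4 below at 4.88. The store itself was mixed. Both calcium pumps were bright, Atp2a1 (fast, 11.79 ± 0.13) and Atp2a2 (slow and cardiac, 12.15 ± 0.15). The calsequestrins, which buffer stored calcium, were Casq2 (cardiac and slow) at 12.29 ± 0.21 and Casq1 (fast) at 10.27 ± 0.88. Sarcolipin Sln, a small inhibitor of the pump, ran from 5.18 to 10.20, and its relative Pln from 7.71 to 8.74.

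Of the acetylcholine receptor, the fetal gamma subunit was bright and the adult epsilon subunit dim on these arrays. The receptor is a pentamer in which the gamma subunit of fetal and noninnervated muscle gives way to epsilon in the adult. Chrna1 had 12.75 ± 0.18, Chrnd 11.58 ± 0.26 and Chrnb1 10.80 ± 0.25. Chrng, the gamma subunit, had a lowest value of 11.25, a median of 11.56 and a highest of 12.10. Chrne, the epsilon subunit, had a lowest value of 5.66, a median of 5.87 and a highest of 6.22. Every array thus had gamma far up the scale and epsilon at or little above the receptor reference, although different probes do not allow a ratio. The organizers of the synapse were present: the kinase Musk at 10.56 ± 0.23, its coreceptor Lrp4 at 9.74 ± 0.42, rapsyn Rapsn at 9.26 ± 0.30, Dok7 at 8.82 ± 0.20 and acetylcholinesterase Ache at 6.87 ± 0.36.

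The promoters of the gamma and epsilon genes are shown because one subunit was far above the receptor reference and the other near it, in the same form as those of the myosins above.
Chrng (chr1:87205561-87205860, plus strand): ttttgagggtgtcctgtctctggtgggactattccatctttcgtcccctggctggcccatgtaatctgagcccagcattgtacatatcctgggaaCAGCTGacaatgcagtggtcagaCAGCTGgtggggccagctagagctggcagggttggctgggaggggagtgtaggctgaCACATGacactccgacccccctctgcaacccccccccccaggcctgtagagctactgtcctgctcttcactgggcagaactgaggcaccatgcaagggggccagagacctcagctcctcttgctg
Chrne (chr11:70619145-70619444, minus strand): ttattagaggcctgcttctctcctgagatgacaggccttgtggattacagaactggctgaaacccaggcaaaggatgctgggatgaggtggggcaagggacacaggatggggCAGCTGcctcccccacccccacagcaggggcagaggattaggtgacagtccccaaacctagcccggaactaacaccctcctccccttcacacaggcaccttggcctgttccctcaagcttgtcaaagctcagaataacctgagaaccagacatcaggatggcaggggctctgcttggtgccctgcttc
The Chrng stretch held 3 E-boxes, 2 of them CAGCTG, which 1.75% of all promoters hold at least 2 times. The Chrne stretch held 1 E-box, a CAGCTG, and 1 CCGGAA, the letters of the N-box, a synaptic element known from this gene. CCGGAA was found on either strand in 15.2% of all promoters. A match of letters is a description and not a bound site.

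The regulators of the program were present together. Myod1 (11.32 ± 0.31) and Myog (12.35 ± 0.20) were high in every culture, and Myf5, the early factor, had 8.55 ± 0.37. Myf6, also called MRF4 and the factor of late differentiation and adult fibres, ran from 7.72 in culture 15 to 10.70 in culture 24 with a median of 9.07. The partners Mef2a (12.43 ± 0.13), Mef2c (11.74 ± 0.31) and Mef2d (10.85 ± 0.13) and the TEAD factors Tead1 (10.09) and Tead4 (10.05) were above the reference, as were Tead2 and Tead3. Besides Mymk, the fusion genes included Mymx (myomerger), at 7.12 ± 0.32, N-cadherin Cdh2 at 11.46 ± 0.21 and Tmem182, a muscle membrane protein, at 12.49 ± 0.26. Nphs1 was the fusion gene nearest to the reference, at 5.90.

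Muscle microRNAs are read here from the signal over their hairpins and were chosen after their values were seen. Their mature sequences are printed because both come from 1 locus on chromosome 1 and are classic products of the myogenic program, with the seed (bases 2 to 8) in capitals, from RefSeq (GRCm38.p6).
mmu-miR-206-3p (chr1:20679055-20679076, plus strand): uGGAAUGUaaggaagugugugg
mmu-miR-133b-3p (chr1:20682834-20682855, plus strand): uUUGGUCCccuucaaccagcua
The seeds differ, so the pair belongs to separate seed families. The cluster of Mir206 had 8.66 ± 0.92 and that of Mir133b 10.55 ± 0.77. Both were high in cultures 5, 11 and 15 (9.37 to 9.60 for Mir206, 11.15 to 11.43 for Mir133b). They were lower in cultures 10, 16 and 24 (7.50 to 8.20 and 9.78 to 9.96). The share of all genes, or of small RNAs, that divide the cultures in this way was not counted. The arrays of cultures 5, 11 and 15 also had the higher medians over all clusters, 5.74 to 5.81 against 5.62 to 5.66. Over 274 small RNA symbols whose highest array reached the reference, the mean signal was 7.47 in culture 5 and 7.55 in culture 15, against 7.03 to 7.19 in the other 4, culture 11 among them. The part of these shifts in the microRNA values was not tested. A hairpin signal on such an array does not measure the mature microRNA.

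Enzymes of energy metabolism were present in their muscle forms, with some ubiquitous forms beside them. Pygm, the muscle glycogen phosphorylase, had 11.92 ± 0.16, whereas Pygb (brain) had 6.96 ± 0.30 and Pygl (liver) 5.54 ± 0.09. Gys1, the muscle glycogen synthase, had 10.93 ± 0.14 and the liver form Gys2 4.45 ± 0.12. Eno3 (muscle enolase) had 12.44 ± 0.21, Pfkm (muscle phosphofructokinase) 10.37 ± 0.27 and Pkm 12.02 ± 0.09, while the liver pyruvate kinase Pklr had 5.94 ± 0.14. Pgam2, the muscle mutase, had 8.25 ± 0.37 and its ubiquitous relative Pgam1 9.03 ± 0.24, while the other cluster of Pgam1 averaged 7.08. For glucose entry, Slc2a1 (basal transporter) had 9.50 ± 0.33 and Slc2a4 (the insulin-responsive transporter) 8.26 ± 0.45, and the hexokinases Hk1 and Hk2 had 8.15 and 8.78. Of the creatine kinases, Ckb (brain) had 10.36 ± 0.54, Ckm 10.69 ± 0.17 and the mitochondrial muscle form Ckmt2 ran from 6.68 to 8.50, while Ckmt1 was below the reference at 5.09.

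Respiratory subunits with muscle and ubiquitous forms had both. Cox6a1 (ubiquitous) had 12.65 ± 0.14 and Cox6a2 (muscle) 11.89 ± 0.23, Cox7a2 (ubiquitous) 9.88 ± 0.15 and Cox7a1 (muscle) 8.85 ± 0.41, Cox8a (ubiquitous) 11.29 ± 0.08 and Cox8b (muscle) 10.07 ± 0.16. Myoglobin Mb, the oxygen carrier, had 11.04 ± 0.51, and Fabp3, the muscle fatty acid carrier, 9.37 ± 0.09, whereas the adipocyte carrier Fabp4 had 3.08 ± 0.22. All 7 AMP kinase subunits were above the reference, including Prkag3, the subunit known from fast glycolytic muscle, at 9.02 ± 0.27. Clcn1, the chloride channel of adult muscle, stood at 5.66 ± 0.30, at the reference, and the inward rectifier Kcnj2 at 7.56 ± 0.65.

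Of the structural and small heat shock proteins, all 14 measured members were above 6.92. Desmin (Des, 12.88 ± 0.10) and vimentin (Vim, 12.76 ± 0.18), the intermediate filaments of mature and of immature or nonmuscle cells, were both bright. Ankrd1, a titin-binding protein also used in heart, had 12.84 ± 0.07. Dystrophin Dmd had 10.57 ± 0.60 and its fetal relative utrophin Utrn 10.28 ± 0.30. All 11 measured genes of their complex were above the reference. Of the growth genes, Igf2 had 10.59 ± 0.17 and Igf1 6.29 ± 0.25. Myostatin Mstn, the negative regulator of muscle mass, ran from 7.70 to 9.52.

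Because every control culture has a second array in limited medium, differences between cultures could be tested against the spread within cultures. A limma F test over the culture terms, with medium as a covariate on the 12 control arrays, called 809 of 22180 genes at an adjusted p under 0.05 (3.65%, Benjamini-Hochberg). The count was 442 without culture 15, 485 without culture 16 and 501 when all 24 arrays shared 1 estimate of the spread. In the families, 37 of 208 members were called (17.8%, against 3.65% of all genes), 21 without culture 15, 23 without culture 16 and 18 with all 24 arrays. The called share differed with brightness: it was 0.97% in the dimmest 20% of genes, 1.78%, 4.22% and 6.18% in the next steps of 20%, and 5.09% in the brightest 20%. Of the 10 myotube markers limma called 0 (0 at an unadjusted p under 0.05), with a lowest adjusted p of 0.404 for Myh8. Of the 16 measured reference genes it called 0 (2 at an unadjusted p under 0.05), with a lowest adjusted p of 0.256 for Tfrc, and 0 of either list under any alternative.

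Of the 37 called members, 19 (51.4%) were lowest in culture 15, against 35.1% of the 208 measured members, 34.4% of the 809 called genes and 22.2% of all genes. Culture 16 was lowest for 9 (24.3%), against 22.2% of the called genes and 18.5% of all. Culture 24 was highest for 20 (54.1%), against 26.0% of the measured members, 31.4% of the called genes and 18.7% of all. The array of culture 15 also had the highest median over all clusters. When the arrays were quantile normalized once more, 35 of the 37 were called again. Cacnb2 (adjusted p = 0.108 by limma) and Cox7a1 (0.0542) lost the call, and Myh6 (0.0395) and Myh10 (0.038) gained it. The calls of 10 members held under all 12 alternatives at this threshold: Myh4, Sln, Casq1, Ckmt2, Myf6, Atp1b1, Hspb7, Ankrd2, Rian and Mstn. Rian could not be tested under the alternative limited to genes at or above the reference, its mean of 5.55 being below it.

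Myh4 was 26.1-fold higher in culture 5 than in culture 15 (adjusted p = 3.25e-04 by limma, at most 0.00882 over the alternatives). In limited medium the same cultures had 10.76 and 8.16. Sarcolipin had 10.20 in culture 24, 9.34 in culture 5 and 8.88 in culture 10, with 6.42, 6.33 and 5.18 for cultures 16, 11 and 15 (adjusted p = 8.65e-04 by limma, at most 0.0369). Casq1 had 11.12, 11.04 and 10.87 in cultures 24, 5 and 10, and 9.99, 9.57 and 9.01 in cultures 11, 16 and 15 (adjusted p = 1.15e-04 by limma, at most 0.0056). Ckmt2 had 8.40 to 8.50 in cultures 5, 10 and 24 and 6.68 to 6.99 in the other 3 (adjusted p = 1.39e-04 by limma, at most 0.00134). Myf6 fell into the same order, with 10.70, 10.37 and 9.52 in cultures 24, 5 and 10 and 8.62, 8.24 and 7.72 in cultures 11, 16 and 15 (adjusted p = 1.32e-05 by limma, at most 5.74e-04). For these 5 genes cultures 5, 10 and 24 were above cultures 11, 15 and 16 without overlap in standard medium, a grouping read from the values and not given by the labels. The same held for 19 of the 37 called members (51.4%), these 5 among them. It held for 18.3% of the 208 measured members, 27.6% of the 809 called genes and 6.5% of all genes.

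Of the other 5 members called under all alternatives, Hspb7, Atp1b1 and Rian shared that order, and Ankrd2 and Mstn did not. Ankrd2, a stretch-responsive partner of titin, was highest in culture 11 (11.60) and lowest in culture 5 (9.82). Mstn was highest in culture 16 (9.52) and lowest in culture 11 (7.70). Hspb7, a small heat shock protein of heart and muscle, ran from 9.20 in culture 16 to 10.94 in culture 24, and Atp1b1, a sodium pump subunit, from 8.41 in culture 15 to 9.72 in culture 24. Rian, a maternally expressed noncoding RNA, had 6.93, 6.86 and 5.47 in cultures 24, 5 and 10 and 4.83, 4.67 and 4.56 in cultures 16, 11 and 15, so that it was above the reference in cultures 5 and 24 alone. The adjusted p of these 5 genes lay between 4.74e-04 (Ankrd2) and 0.00609 (Mstn) by limma, and was at most 0.0488 (Atp1b1) over the alternatives.

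The remaining called members lost the call under at least 1 alternative, and some of them were close to the threshold. Slc2a4 (adjusted p = 0.00361 by limma), Tpm3 (0.00478) and Hspb6 (0.00565) lost it with all 24 arrays alone. Chrng was called with an adjusted p of 0.0333 by limma, a 1.81-fold range from culture 15 to culture 10, and lost the call without culture 10, 15 or 24 (0.0176 to 0.119 over the alternatives). Chrne, with a 1.47-fold range, passed at 0.0342 by limma and was lost without culture 10, 15, 16 or 24 and with all 24 arrays (0.0203 to 0.205). Myh7 passed at 0.0243 and was lost without culture 15, the lowest at 10.26, with an adjusted p of 0.632 by limma, and also with all 24 arrays (0.0145 to 0.632 over the alternatives). By contrast Myh3 had 12.86 to 13.22 in standard and 12.78 to 13.18 in limited medium, with an adjusted p of 0.569 by limma. Ckm had 10.50 to 10.95 and 10.82 to 11.40, with an adjusted p of 0.552.

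**Figure D3:**
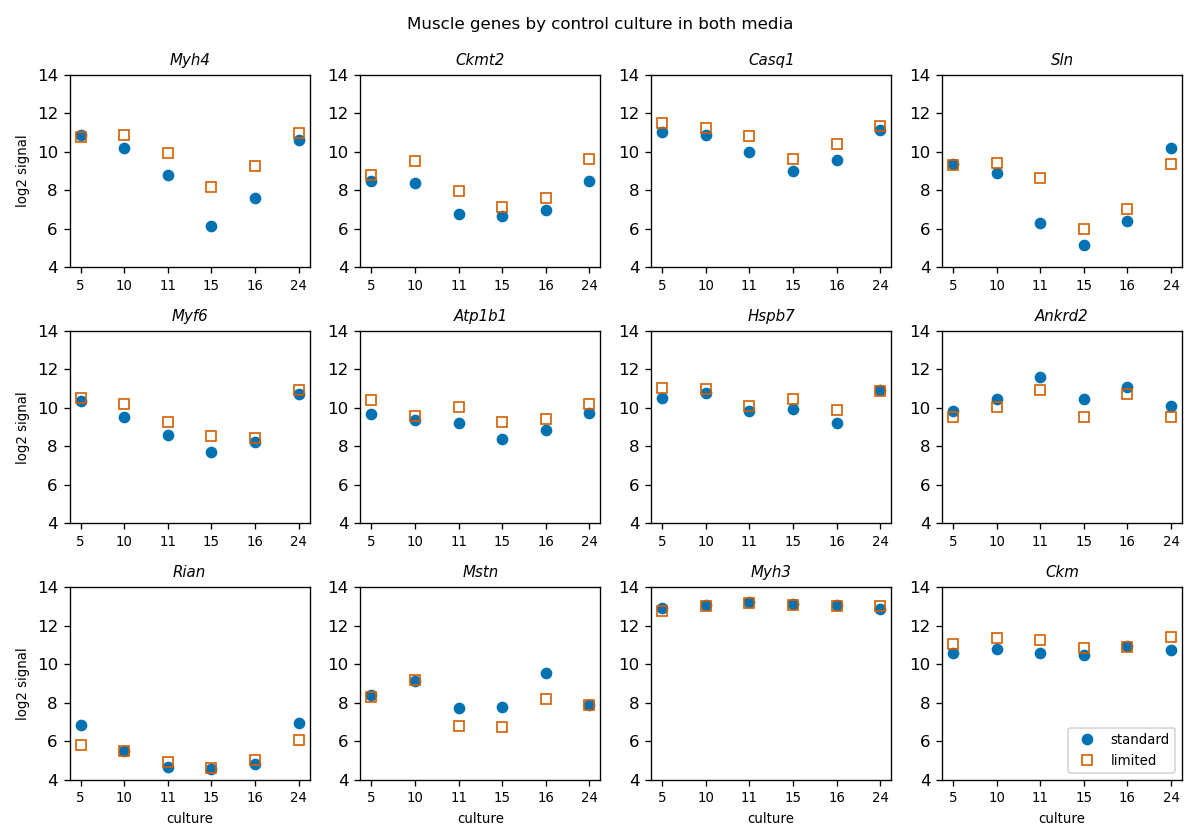
Log2 signal by control culture (horizontal axis, culture number) for the 10 family members called under all alternatives, and for Myh3 and Ckm, which were not called. Filled circles are standard medium and open squares limited medium. Myh4, Sln, Casq1, Ckmt2 and Myf6 are low in cultures 11, 15 and 16 in standard medium, with Myh4 at 6.15 in culture 15, and Myh3 is level near 13.

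The 25 named genes with the largest SD were taken from the 14003 genes whose highest array reached the receptor reference. The SD over these arrays chose them, so no test is given for the list. The adjusted p-values above for Sln, Myh4, Myf6 and Rian, which are also family members, use the same arrays and are no support for their place here. Of those 14003 genes, 610 (4.36%) had an SD of at least 0.5 and 47 had at least 1. The list ended with Rian at an SD of 1.0838, and Timp1, at 1.0836, was just outside. Of the 25, 12 (48.0%) were highest in culture 24 and 8 (32.0%) in culture 16, against 20.2% and 24.0% of the 14003 genes. Culture 15 was lowest for 11 (44.0%) and culture 11 for 8 (32.0%), against 24.5% and 14.8%. Leaving out cultures 16 and 24 together kept 14 of the 25.

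The potassium channel gene Kcnma1 varied most, with an SD of 4.04. Its cluster had 13.87 to 13.90 in cultures 10, 11 and 15, 10.93 in culture 24 and 5.66 and 5.65 in cultures 5 and 16. In limited medium the same cultures had 13.60 to 13.79, 10.45, 7.53 and 6.16, and the 6 undernourished arrays in standard medium ran from 5.59 to 13.89. A second cluster named Kcnma1 lay between 4.77 and 6.86 and did not follow the first (r = 0.025 over 12 control arrays, a description). A pair of unnamed clusters with values identical to each other did follow it (r = 0.942), with 13.05 to 13.17 in cultures 10, 11 and 15. The gene behind this signal is thus not settled by its name.

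The list held the extracellular matrix genes Postn, Bgn, Nid1, Col1a1, Dcn, Tnc, Lox, Timp3 and Frem2, put together after the values were seen. Postn (periostin) had 10.56 in culture 16 and 9.39 in culture 24, and 5.05 to 6.14 in the other 4. Bgn (biglycan) had 11.86 and 11.09 in these cultures and 7.45 to 9.76 elsewhere. Nid1 (nidogen, of basement membranes) had 9.84 and 8.48 against 6.27 to 7.42, and Col1a1 10.42 and 9.08 against 7.18 to 8.19. In these 4 genes culture 16 was highest and culture 24 next. Dcn (decorin) was high in culture 16 alone, at 7.33 against 4.36 to 4.95. Lox, which crosslinks collagen, Timp3, an inhibitor of matrix proteases, and Tnc (tenascin C) were highest in culture 24, at 9.36, 9.03 and 9.70. Frem2 went another way, with 9.37 in culture 5 and 9.30 in culture 24, but 6.95 in culture 16 and 6.86 in culture 15. Among genes outside the matrix, Cdh19, a cadherin of glial precursors, had 6.29 and 5.83 in cultures 16 and 24 and 3.48 to 3.57 elsewhere, and the apolipoprotein Apod had 7.97 and 6.69 against 5.00 to 5.32.

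The average over the fibroblast markers, though not each marker, was also higher in these cultures. The fibroblast list averaged 6.97 in culture 16 and 6.28 in culture 24 against 5.65 to 5.84 in the other 4, and its 9 members include Col1a1 and Dcn. Its members Pdgfra, Lum, Tcf21 and Pi16 were below 5.66 on all 6 arrays. The part of nonmuscle cells in the matrix genes was not tested.

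The other variable genes were of muscle or of mixed origin. Besides Sln, Myh4, Myf6 and Rian, the Z-disc protein myotilin Myot had 10.89 and 11.12 in cultures 5 and 24 and 8.07 to 9.71 in the others. Follistatin Fst, which binds myostatin and activin, ran from 8.53 in culture 15 to 11.26 in culture 24, and Bex1 from 8.82 to 11.96 in the same cultures. Fgf21, a stress-induced hormone, had 8.79 and 8.74 in cultures 5 and 24 and 10.38 to 11.48 in the others, but in limited medium these cultures had 11.06 and 10.64 and the lowest was culture 11 at 8.86. Eid3 was highest in culture 15, at 9.41 against 6.21 to 7.50. AF357355 is a symbol that the patterns for small RNA and clone symbols did not cover. It, Igfbp7, Islr and the zinc finger gene Zfp97 had SDs between 1.11 and 1.18.

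Arrays that the choice did not use were then read for the same genes. In limited medium 16 of the 25 had their highest culture in the same place (27.1% of the 14003 genes did) and 13 their lowest (28.4%). In the undernourished arrays in standard medium, 24 of the 25 had an SD in the highest 10% of these genes, where the share over all is 10% by construction. Zfp97 was the exception, with an SD of 0.28 there against 1.18 in the control arrays. Col1a1 ran from 7.16 to 11.76 and Cdh19 from 3.33 to 10.39 in those undernourished arrays. The arrays of a medium pair carry the same culture number, so the limited arrays cannot be taken as independent of the standard ones.

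**Figure D4:**
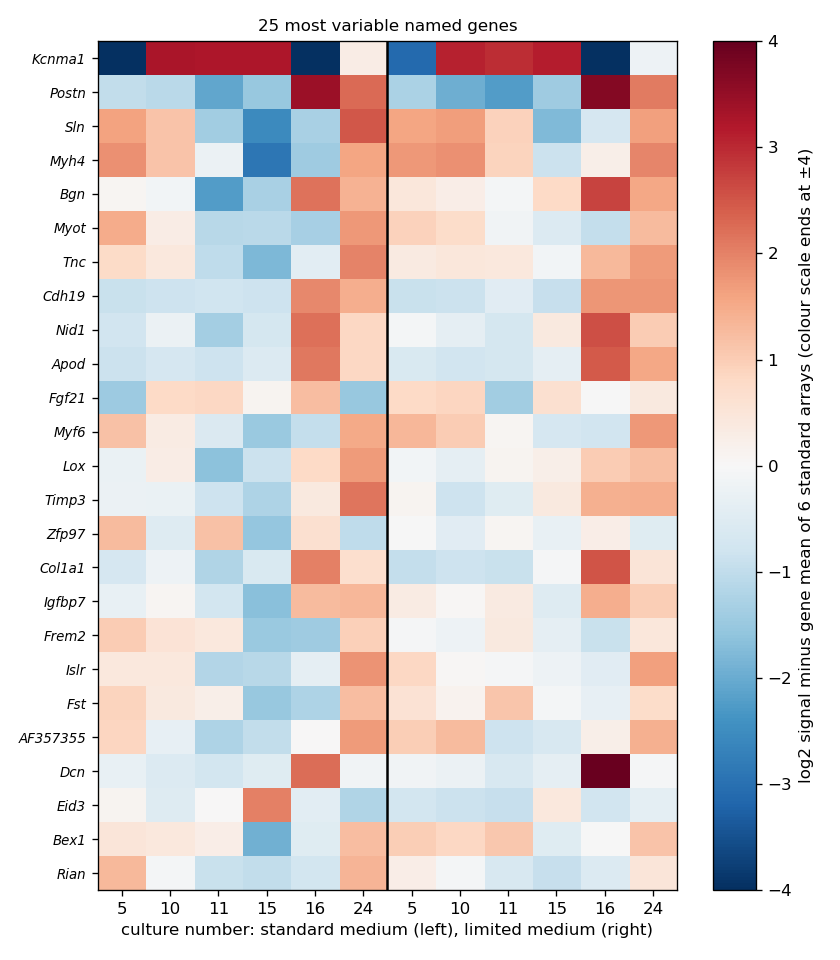
The 25 most variable named genes (rows) in the 6 control cultures in standard medium (left) and limited medium (right), as log2 signal minus the mean of the gene over the 6 standard arrays, with colours ending at ±4. Postn, Bgn, Nid1, Apod and Col1a1 are red in cultures 16 and 24 in both media, and Sln and Myh4 are blue in culture 15.

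At the quiet end, the 20 named genes with the smallest SD among the 12791 genes at or above the reference had SDs from 0.02 to 0.03. The ubiquitin protease Usp16 was first, with 8.60 to 8.64 on the 6 arrays. Gapdh came next after Coro2a, with 13.50 to 13.56. Cnot2, a subunit of the deadenylase complex, lay between 9.58 and 9.63, and Ldb1, an adaptor of LIM transcription factors, between 9.39 and 9.45. The kinase Csnk1a1 was the other gene above 11, between 11.04 and 11.12. The remaining named genes were Coro2a, Armh3, Mmp9, Olfr332, Fam170b, Hmgxb4, Fgl2, Hlf, Ift52, Arhgap33, Pwwp3a, Hif3a, Ppm1a, Abcb8 and Trappc8, with Yipf2 just outside at 0.0332 against 0.0330 for Trappc8. Among them Coro2a, Mmp9 and Hif3a had means just above the reference (5.73 to 5.74).

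The order at this end depended on the arrays. In the undernourished standard arrays 8 of the 20 were in the lowest 10% of SD, in the control limited arrays 9 of 20, and in both 5 (Armh3, Hlf, Ift52, Hif3a and Csnk1a1), against 1.99% of all genes in both. Usp16 had an SD of 0.28 in the undernourished and 0.12 in the limited arrays, and Gapdh 0.12 and 0.06. After quantile normalization 3 of the 20 stayed on the list, and by the range without the highest and lowest array 0 did.

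Genes commonly used as references had SDs from 0.02 to 0.32. Gapdh (0.02), Eef1a1 (0.05), the importin Ipo8 (0.07) and Ywhaz (0.08) were the quietest of the 16 measured. Sdha had 0.10, Csnk2a2 0.11, Tbp 0.12, Pgk1 0.15 and Polr2a 0.19, near the median of all genes. Actb (0.23), Gusb (0.28), Rplp0 (0.29), Hprt (0.29) and the transferrin receptor Tfrc (0.32) varied more than the median gene at or above the reference (0.19). Other clusters of Gapdh had SDs of 0.03 (mean 13.48) and 0.43 (mean 9.78), so the spread belongs to a probe set and not to the gene as such. Gapdh and Eef1a1, with means of 13.54 and 13.22, lay near the highest value on these arrays, 14.04. An effect of this position on their SD was not tested.

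**Figure D5:**
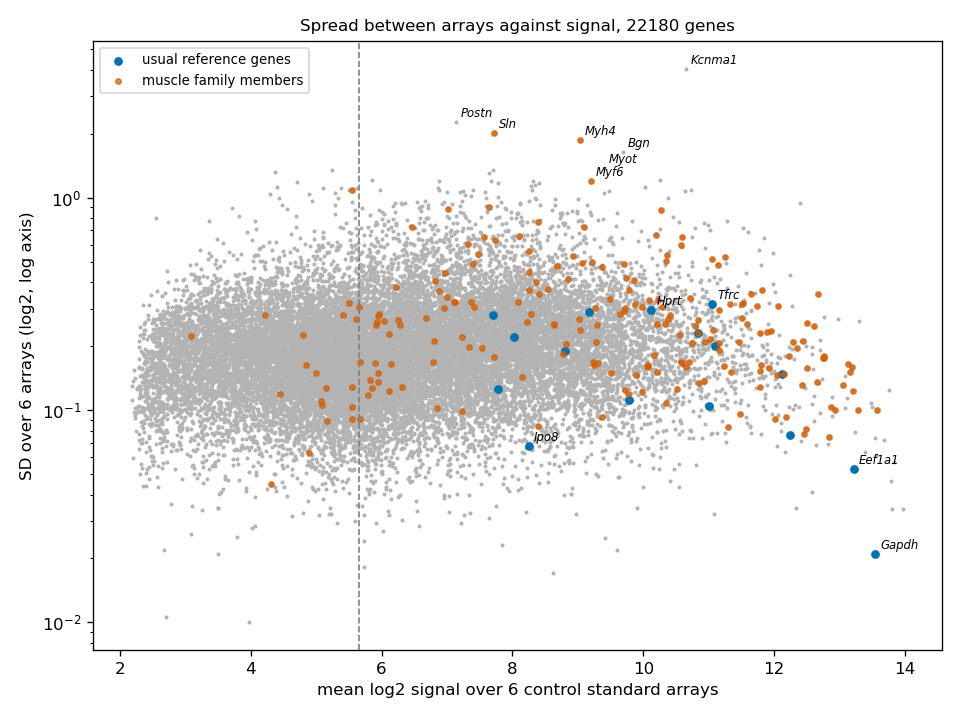
SD over the 6 control arrays in standard medium (vertical, log axis) against mean log2 signal (horizontal) for 22180 genes in grey, with the 16 reference genes in blue and the family members in orange. The dashed line is the receptor reference at 5.66. Gapdh lies at 0.02, most genes lie near 0.18, and Kcnma1, Postn, Sln and Myh4 stand at the top.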

How the data were processed

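RNA of 24 samples was measured on 24 single-colour Affymetrix arrays, and the 6 control arrays in standard medium are described. Per the submitters' processing notes, the deposited log2 signal was made by the authors with RMA in Affymetrix Expression Console. Tool versions and the genome build were not given in the sources used here, and base 2 was read from the range of the values. Detection calls were not used, and precision is limited by the number of arrays.

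Of 41345 clusters, 23521 carried 1 symbol in the platform annotation, updated through RefSeq (GRCm38.p6, 23328 matched), 1814 several and 16010 none. Only the first were used, 1 cluster per gene with the highest mean over the 6 arrays, which gave 22180 genes. For 1082 genes with several clusters the others were set aside. Differences between cultures were tested with limma 3.58.1 in R 4.3.3 (lmFit, eBayes, F test over culture terms with medium as covariate, 12 control arrays, Benjamini-Hochberg over all genes, threshold 0.05). The culture number has no stated meaning, so p-values measure only the spread between these samples, which may be technical. On simulated data the test recovered 99% of 100 genes given a culture SD of 0.5 and 100% of 100 genes given an SD of 1. It also made 21 false calls, more than the threshold implies.

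Named were the 25 brightest, 25 most variable and 20 least variable genes (small RNA, model and clone symbols of set patterns left out, 3 before the 25th brightest and 6 before the 25th most variable), members of 25 fixed families, 20 reference genes and cell type markers. The members and lists were chosen with earlier results of these data known. Alternatives covered quantile normalization, the receptor percentile, cluster choice, array weights, variance prior, thresholds and leaving out each culture.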

Additional observations from a re-analysis of the deposited data

Results flagged for a closer look

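In 11 of 323 named genes, 1 of the 6 control arrays in standard medium stood apart from the other 5 by Dixon's criterion, which sets the gap to the nearest array against the whole range. Chance flags about 1 in 20 such groups. Culture 16 was high for Dcn (7.33, nearest array 4.95), Dpt (6.44, nearest 5.48) and Pdgfrb (8.36, nearest 6.51), markers of fibroblasts and pericytes. Culture 15 was high for the light chain Myl10 (6.14, nearest 5.63) and the phosphofructokinase Pfkp (8.83, nearest 8.28). Culture 11 was high for Actn4 (10.55, nearest 10.36) and the fast troponin Tnnt3 (12.64, nearest 12.49) and low for the potassium channel Kcnj2 (6.33, nearest 7.55). Culture 24 was low for the AMP kinase subunit Prkag3 (8.52, nearest 9.04) and high for the glucose transporter Slc2a3 (5.24, nearest 4.80, both below the receptor reference). Culture 10 was low for the adhesion gene Jam3 (8.91, nearest 9.23).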

How the results depend on the processing

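The deposited means of the 323 named genes moved by at most 0.038 (log2) under quantile normalization, each by less than its SD. Of the 25 brightest genes, 21 stayed when clusters of a gene were averaged and 24 to 25 without single arrays. Genes at or above the receptor reference numbered 7861 with its 99th percentile and 12660 to 12884 without single arrays, and family members 186 to 190. Genes with an SD of at least 0.5 numbered 525 to 738. Of the 25 most variable genes, 16 stayed by the range without the highest and lowest array, 18 to 24 without single arrays, and 14 without cultures 16 and 24, a setting chosen after seeing the data. Of the 20 least variable, 3 stayed after quantile normalization, 0 by the trimmed range and 7 to 13 without single arrays. The culture test called 501 genes with all 24 arrays, 290 at an adjusted p under 0.01 and 442 to 763 without single cultures. Of family members it called 18, 15 and 21 to 38. The causes of these changes were not tested. Leaving out a culture also lowers the number of arrays, and the threshold of 0.01 is stricter by design. No paired analysis was possible because the comparison is between the culture numbers themselves, and the levels come from no test. Signal near the reference of 5.66 limits what can be said of dim isoforms such as Chrne.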

Other observations

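Clusters outside the named genes also carried signal. Of 16010 clusters without a symbol, 6645 (41.5%) had a mean at or above the receptor reference on the control arrays in standard medium, and 222 of the unnamed clusters had an SD of at least 1, up to 3.01. Of the 1814 clusters with several symbols, 11 were as bright as the 25th named gene. When cultures 16 and 24 were both left out, genes that entered the 25 most variable included Pcbd1, Ampd1 (the muscle AMP deaminase), Fn1 (fibronectin), Cd55 and Padi2, chosen here after their values were seen. The olfactory, vomeronasal and taste receptor genes had a median of 3.40, but the brightest of them reached 12.32, so a few clusters with such names carried strong signal in these cultures.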
